A study of Mus musculus with 1 sample.

Results

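The cells described here were the 200 alveolar macrophages (AMs) with the highest combined expression of Ctsk, Cd63, Wfdc17 and Crip1, out of 2055 AMs in 1 single-cell library (9.73% of the cells). For each cell, the natural-log expression value of each of the 4 genes was turned into a z score across all cells, and the 4 z scores were averaged. The 200 cells with the highest average are called Ctsk/Cd63/Wfdc17/Crip1-high AMs, and the other 1855 cells are called the other AMs. The AMs were sorted from adult lung as CD45+CD11c+SiglecF+ cells, 5000 sorted cells were loaded, and 3′ libraries were made on the 10x Genomics platform (v2 chemistry). The library is labelled WT. The source was given as mice of 8 to 12 weeks that carried floxed Hdac3 without a Cre. Their background was FVB/NJ backcrossed to C57BL/6 for 10 generations. The labels do not state how many mice were used, and the study's text gives 1 adult mouse per genotype for these sorted AMs. The series' design text names a Csf1rCre- HDAC3fl/fl control, whereas the study's text sets these WT cells against a Cd11cCre deletion. The series as a whole asks what the histone deacetylase HDAC3 does in the development and upkeep of AMs, and only the WT library was analysed here. With 1 library there was no replicate, so no comparison below carries a test. Each ratio is instead given with an exact 95% interval, which covers counting error only and neither the spread between mice nor the choice of cells.

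AMs live in the airspace, take up and degrade surfactant lipids, microbes and cell debris, and maintain themselves locally. Ctsk encodes cathepsin K, a lysosomal cysteine protease best known from bone-resorbing osteoclasts. Cd63 encodes a tetraspanin of late endosomes, lysosomes and exosomes. Wfdc17 encodes a small secreted protein with a whey acidic protein domain, a fold found in protease inhibitors such as SLPI, and Crip1 encodes a small cysteine-rich protein with a LIM zinc-binding domain.

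The 4 genes set the choice, so their levels are a description. Levels are UMIs (unique molecular identifiers, which count captured RNA molecules) per 10000 UMIs, summed over all cells of a group. The Ctsk level was 6.54 in the 200 cells and 1.73 in the other AMs. The Cd63 levels were 6.82 and 1.37. The Wfdc17 levels were 13.7 and 2.68, and the Crip1 levels were 14.7 and 3.19. All 4 genes had at least 1 UMI in 107 of the 200 cells (53.5%), 3 of them in 89 cells, and 2 of them in the remaining 4 cells. Among the other AMs, 2.21% had all 4 genes and 20.4% had none. The genes lie on different chromosomes (GRCm38, GENCODE M21). Ctsk is at 95499256 to 95509362 on chromosome 3, Cd63 at 128900989 to 128912822 on chromosome 10, Wfdc17 at 83703991 to 83706268 on chromosome 11, and Crip1 at 113146316 to 113153879 on chromosome 12. When the last 300 bases of each transcript were cut into every run of 98 bases, the length of a read, 46.5% of the runs of Cd63 also occurred in its pseudogene Cd63-ps, so Cd63 reads could be split between them. No shared run was found for Ctsk, Wfdc17 or Crip1.

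The score showed no break at the boundary of the group. The lowest score among the 200 cells was 0.856, the next cell below had 0.854, and the highest score was 2.81. The 5 cells just inside had scores of 0.856 to 0.866 and the 5 just outside had 0.849 to 0.854. Within 0.05 of the boundary lay 28 of the 200 cells and 24 of the other AMs. The group is a range of the score set by the number of cells taken, and whether it holds a separate type of cell was not tested. Other ways of choosing moved its membership. Choosing by the authors' scaled values kept 85.0% of the 200 cells, choosing on a random share of the UMIs kept 72.5%, and leaving out 1 of the 4 genes kept 68.5% to 75.5%.

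**Figure D1:**
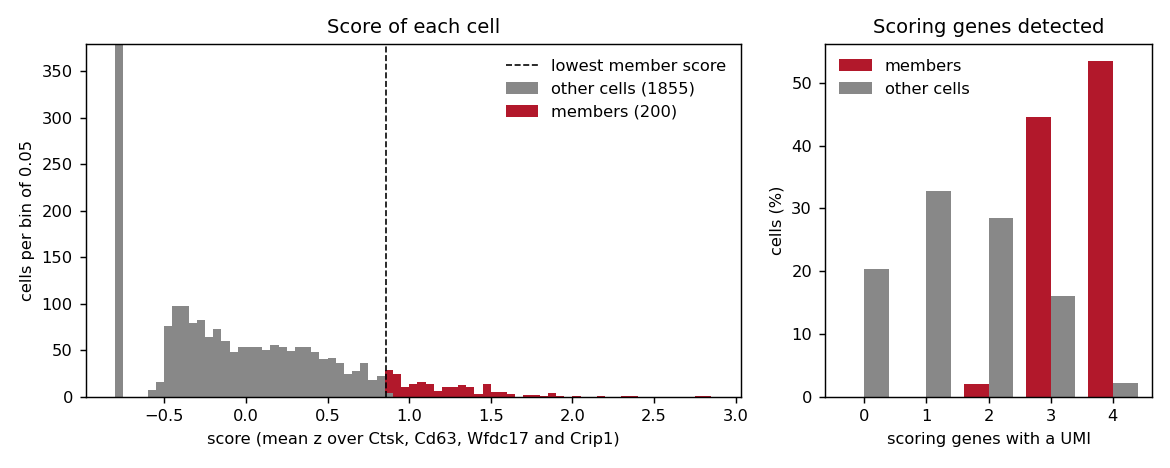
Left, cells per score bin of 0.05 for the 2055 AMs, where the score is the mean z of Ctsk, Cd63, Wfdc17 and Crip1 (red, the 200 highest cells; grey, the others; dashed line, the lowest score among the 200). Right, percentage of cells in each group by how many of the 4 genes had a UMI. The scores run on through the boundary at 0.856, and 53.5% of the 200 cells had all 4 genes against 2.21% of the others.

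Correlations between the 4 genes over single cells were low. Over all 2055 cells the Pearson correlations between pairs of their natural-log values lay between 0.134 and 0.186, in 1 library with depth shared by all genes of a cell. Each of the 4 genes had a per-cell median of 0 in the other AMs. Counting noise therefore also enters these correlations, and its part was not tested. To see whether each gene was high where the other 3 were, the 200 highest cells were chosen from 3 genes and the one left out was read in them. Wfdc17 was then 9.56 per 10000 UMIs in the chosen cells and 3.20 in the rest, a ratio of 2.99 (95% interval 2.75 to 3.25). The ratio was 2.27 (1.99 to 2.57) for Cd63, 2.09 (1.92 to 2.28) for Crip1 and 1.92 (1.69 to 2.17) for Ctsk. All 4 ratios were above 1. Each was smaller than when the gene itself took part in the choice, which raises its ratio by construction.

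The 200 cells held somewhat more RNA than the other AMs. They had 1145 to 8603 UMIs per cell (median 3697) and a median of 1565.5 genes, while the other AMs had 1143 to 8184 UMIs (median 3243) and a median of 1443 genes. With all cells put into 5 bins by UMIs, 5.87% (3.80 to 8.61) of the cells in the lowest bin were among the 200, against 15.6% (12.2 to 19.4) in the highest bin. The mitochondrial share of UMIs was a median of 3.41% in the 200 cells and 3.18% in the other AMs. When the other AMs were weighted to the UMI distribution of the 200 cells, none of the 62 named genes changed direction or moved beyond its interval. When every cell was thinned to the same number of UMIs, which also leaves fewer UMIs per gene, 10 moved beyond their interval and 1 changed direction. Shares of cells with a UMI are given as measured and, in brackets, after every cell was thinned to 1801 UMIs, which left 187 of the 200 cells and 1663 of the others. The sort holds no cell class known to lack these genes, so the level of free RNA in the droplets was not measured. No doublet caller was run. The authors had removed cells with more than 2500 genes as doublets. Doublets below that limit may remain, and their part in the group was not tested.

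AM identity genes were divided between the groups. Of 29 AM identity genes with at least 200 UMIs, 13 were higher than in the other AMs and 16 lower, with a median log2 ratio of -0.03, beside -0.05 over all genes compared. Chil3, which encodes the secreted chitinase-like protein Ym1, was at 142 per 10000 UMIs in the 200 cells and 135 in the other AMs, and it was detected in every cell of both groups. Siglecf, a receptor used in the sort, was at 1.48 and 1.64, and Marco, a scavenger receptor for particles, at 3.39 and 3.17. Pparg, the nuclear receptor that drives AM differentiation, was at 1.08 and 1.18 (ratio 0.911, 0.720 to 1.14). Hdac3 had 9 UMIs in the 200 cells, a level of 0.113 against 0.171, with a ratio of 0.659 and an interval of 0.294 to 1.30. Markers of other cells were sparse. Of 30 monocyte and interstitial macrophage markers, 20 were listed in the data and 4 had at least 200 UMIs. Of those 4, Fn1 and Cd14 were higher (log2 ratios 0.68 and 0.24) and Apoe and Csf1r lower (-0.85 and -0.27). Cx3cr1, Ly6c1, Plac8, Tmem176a and Tmem176b had no UMI in the 200 cells. Their shares in the other AMs are not given here, so these zeros are not read as a difference. The summed level of the listed markers ran from 0 to 164 per 10000 UMIs in the 200 cells (median 10.8) and from 0 to 157 in the other AMs (median 8.36). The dendritic cell markers Zbtb46 and Ccr7 and the epithelial surfactant genes Sftpb and Sftpd also had no UMI in the 200 cells. With the limit of a count of 0 taken as 3 cells, 0 of 200 cells allows up to 1.5% of cells with a UMI. The summed level of 20 epithelial markers was a median of 3.19 in the 200 cells and 3.39 in the other AMs.

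Among 4297 genes with at least 200 UMIs, the 4 scoring genes left out, 38 (0.884%) were at least 1.5-fold higher in the 200 cells and 171 (3.98%) were at least 1.5-fold lower. Of the 171 lower genes, 153 had fewer than 500 UMIs in all cells. Among genes with at least 2000 UMIs, 2 of 583 were higher by that measure and 1 was lower, and 41.7% had a ratio above 1. Over all 4297 genes, 41.0% had a ratio above 1 and 59.0% below 1.

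S100a6 had the highest ratio among the genes compared. It encodes a small calcium-binding protein of the S100 family, and it had 2.03 per 10000 UMIs in the 200 cells and 0.492 in the other AMs, a ratio of 4.13 (3.40 to 5.01). It was carried by few cells. It was detected in 40 of the 200 cells (20.0%, 14.7 to 26.2; thinned 15.5%) and in 8.41% of the other AMs (7.19 to 9.77; thinned 5.89%), and the cell with the highest level held 21 of the group's 162 UMIs. The ratio was 5.58 in the 100 cells with the highest score and 2.68 when cells were chosen without Crip1. S100a6 is at 90612882 to 90624181 on chromosome 3. S100a1, 98.5 kb away, was at 8.39 and 6.17 (1.36, 1.25 to 1.48).

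Cav1 and Gpnmb followed. Cav1 encodes caveolin-1, the coat protein of caveolae, and was at 0.640 and 0.241 per 10000 UMIs (2.65, 1.89 to 3.66). Gpnmb encodes a lysosome-associated membrane glycoprotein of macrophages and osteoclasts, and was at 1.87 and 0.884 (2.11, 1.75 to 2.54). Gpnmb was detected in 43.0% of the 200 cells and 22.2% of the others (thinned 28.9% and 13.3%), which made it more widely spread over the group than S100a6 or Cav1. At least 1 of S100a6, Cav1 and Gpnmb was missing in nearly all cells: 8 of the 200 cells (4.00%) and 0.216% of the other AMs had all 3, and 83 of the 200 (41.5%) and 66.8% of the others had none.

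The other genes named among the 20 with the highest lower bound fell into several kinds. Surface and transport proteins included Slc39a2, a zinc importer (1.67 and 0.871 per 10000 UMIs; 1.91, 1.57 to 2.32), Cd200, a ligand that restrains myeloid cells (0.539 and 0.265; 2.04, 1.42 to 2.86), Emp1, a tetraspan membrane protein (0.753 and 0.394; 1.91, 1.42 to 2.54), and Slc7a11, the cystine importer (1.25 and 0.752; 1.67, 1.33 to 2.07). Of secreted proteins, the fibronectin gene Fn1 was at 4.77 and 2.98 (1.60, 1.43 to 1.79). The median Fn1 level per cell was 3.05 in the 200 cells and 1.58 in the other AMs, although both groups ran from 0 to above 50. Fabp5, a cytosolic fatty acid binding protein, was at 8.29 and 5.34 (1.55, 1.43 to 1.69), with per-cell medians of 5.55 and 3.80. Tppp3, a tubulin-binding protein, was at 2.12 and 1.35 (1.57, 1.32 to 1.85), and Gstm1, a glutathione transferase, at 3.50 and 2.33 (1.5, 1.31 to 1.70). Of the 98-base runs defined above, 9.23% of those of Gstm1 and 67.9% of those of Fdps also occur in other genes, so these levels are less certain.

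Single cells held a large part of the Ms4a6c and Cxcl1 UMIs. The Ms4a6c ratio was 1.90 (1.45 to 2.46), but 22.2% of its UMIs in the group came from 1 cell, and the ratio was 1.49 without that cell. For Cxcl1, a neutrophil-attracting chemokine, the levels were 1.44 and 0.749, while the shares of cells were 10.0% and 9.70%. Of the 115 Cxcl1 UMIs in the group, 46 came from 1 cell, and with cells chosen without Wfdc17 the log2 ratio was -0.04.

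**Figure D2:**
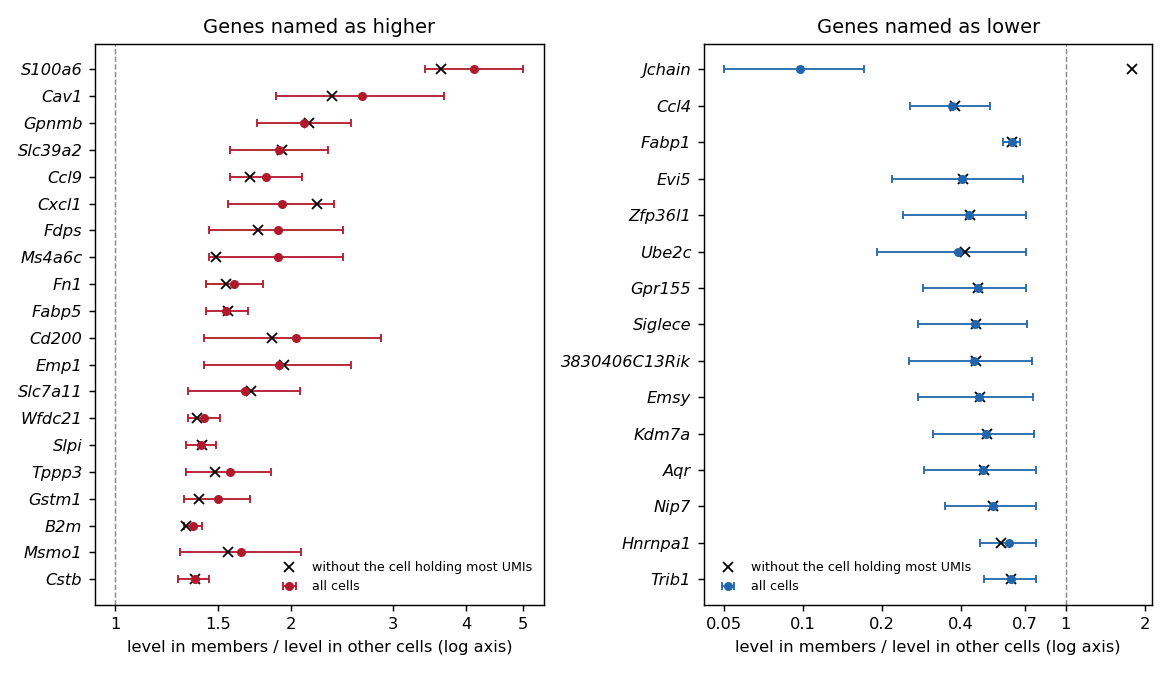
Level in the 200 Ctsk/Cd63/Wfdc17/Crip1-high AMs divided by the level in the other AMs, on a log axis, for the 20 genes named as higher (left) and the 15 named as lower (right). Dots and bars are the ratio and its exact 95% counting interval, and crosses the ratio after the cell with most UMIs of that gene is left out. S100a6 stands apart at 4.13, and the cross of Jchain lies at 1.79, on the other side of 1.

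The same genes were then read in the 200 cells highest in each scoring gene alone, to see which of the 4 each gene went with. S100a6 had its highest ratio in cells chosen by Crip1 (5.23, 4.32 to 6.31), followed by Wfdc17 (3.74, 3.05 to 4.56) and Cd63 (2.19, 1.72 to 2.76), and its interval reached 1 in cells chosen by Ctsk (1.33, 0.991 to 1.77). Tppp3 went with Crip1 as well (2.72, 2.35 to 3.14), with ratios of 1.04 to 1.18 for the other 3, and so did Slpi (1.75, 1.65 to 1.85). The cells chosen by Crip1 were also high in the MHC class II genes H2-Eb1 (6.67, 5.53 to 8.03), H2-Ab1 (5.25, 4.64 to 5.93), H2-Aa (4.67, 4.11 to 5.29) and Cd74 (4.35, 4.07 to 4.64), and they held the 1 cell with 940 Jchain UMIs, so their part in the S100a6, Tppp3 and Slpi ratios of this set was not tested. Gpnmb was higher in cells chosen by Ctsk (2.00, 1.63 to 2.44) and by Cd63 (2.04, 1.67 to 2.48) than in those chosen by Wfdc17 (1.25) or Crip1 (1.28). Emp1 was highest by Ctsk (2.34, 1.73 to 3.11). The sterol synthesis genes Fdps (2.49, 1.94 to 3.18) and Msmo1 (2.14, 1.70 to 2.66) were highest by Wfdc17, as was Wfdc21 (1.62, 1.52 to 1.72). B2m and Cstb had ratios of 1.17 to 1.37 in all 4 sets of cells. The 4 sets were drawn from the same 2055 cells and overlap, and their differences were not tested.

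**Figure D3:**
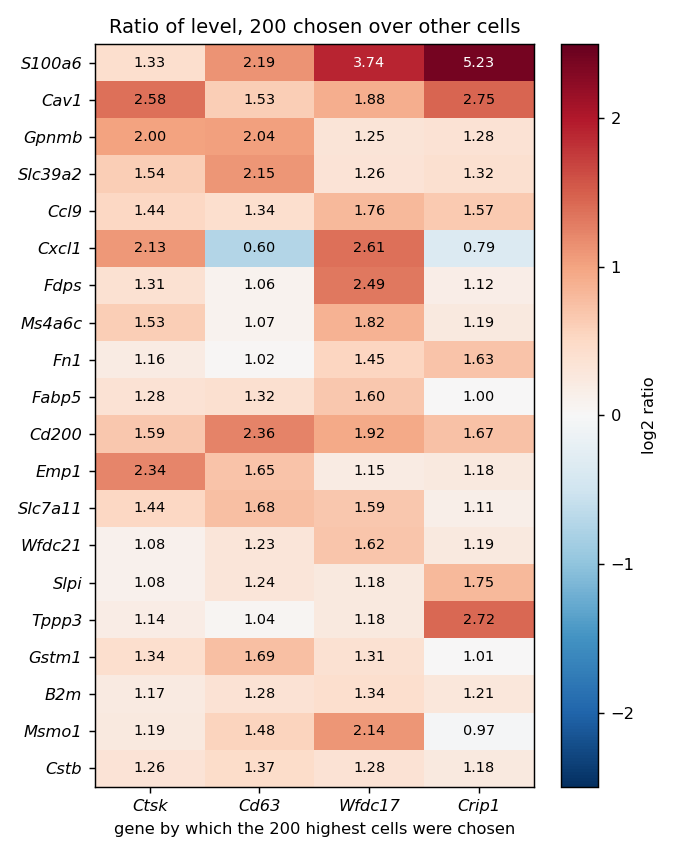
Ratio of level between the 200 cells highest in 1 scoring gene and all other cells, for the 20 genes named as higher (rows) and each of the 4 scoring genes (columns). Colour gives the log2 ratio and the printed number the ratio. S100a6, Tppp3 and Slpi are darkest under Crip1, Gpnmb under Ctsk and Cd63, and Fdps and Msmo1 under Wfdc17.

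Because S100a6 went with Crip1 and Gpnmb with Ctsk, the 250 bases before the transcription start of these 4 genes are shown, from RefSeq (GRCm38.p6), all on the plus strand. Searched on both strands were CACGTG (the E-box read by the lysosomal gene regulator TFEB and its relatives), TGANTCA (AP-1), TATAAA (the TATA box) and GGGCGG (the GC box). Capitals mark any match. Windows of this length held CACGTG in 6.02% of 32851 promoters, TGANTCA in 6.75%, TATAAA in 12.4% and GGGCGG in 32.7%.
Ctsk: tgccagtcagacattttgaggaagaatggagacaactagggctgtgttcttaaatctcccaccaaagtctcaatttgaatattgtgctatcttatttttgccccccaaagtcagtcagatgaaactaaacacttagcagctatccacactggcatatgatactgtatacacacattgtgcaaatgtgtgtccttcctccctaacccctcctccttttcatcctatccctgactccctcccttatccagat
Gpnmb: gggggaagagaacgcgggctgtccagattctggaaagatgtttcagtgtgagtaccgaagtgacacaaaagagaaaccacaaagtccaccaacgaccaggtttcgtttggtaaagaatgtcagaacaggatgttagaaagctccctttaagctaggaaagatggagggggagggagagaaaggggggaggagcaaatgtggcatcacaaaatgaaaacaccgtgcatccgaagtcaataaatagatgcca
Crip1: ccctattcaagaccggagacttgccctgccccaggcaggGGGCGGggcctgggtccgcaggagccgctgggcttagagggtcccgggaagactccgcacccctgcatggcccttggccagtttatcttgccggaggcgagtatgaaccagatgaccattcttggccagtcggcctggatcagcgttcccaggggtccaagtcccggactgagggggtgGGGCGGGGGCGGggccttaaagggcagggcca
S100a6: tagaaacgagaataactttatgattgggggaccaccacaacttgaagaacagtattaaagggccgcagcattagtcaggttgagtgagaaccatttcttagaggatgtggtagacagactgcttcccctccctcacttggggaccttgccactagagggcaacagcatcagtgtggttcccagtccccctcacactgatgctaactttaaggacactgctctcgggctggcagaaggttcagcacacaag
The windows are chr3:95498960-95499209 for Ctsk, chr6:49036268-49036517 for Gpnmb, chr12:113151762-113152011 for Crip1 and chr3:90612644-90612893 for S100a6. Only Crip1 held a match, with 3 copies of GGGCGG, of which the 5′-most began 211 bases before the start. The Crip1 window lies inside the GENCODE span of the gene (113146316 to 113153879), so it precedes a RefSeq start within that span. The absence of these letters in the other 3 windows says nothing about the factors, and no binding was measured here.

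Lysosomal proteases were higher as a group. Of the 11 cathepsins and cathepsin inhibitors with at least 200 UMIs, Ctsk not among them, all 11 had a ratio above 1, against 41.0% of all genes, and the median was 1.23. None reached 1.5. Cstb, the cytosolic cathepsin inhibitor cystatin B, was at 15.8 and 11.5 per 10000 UMIs (1.37, 1.28 to 1.45), and its per-cell median was 13.2 in the 200 cells and 9.96 in the other AMs. Ctsz was at 7.94 and 5.82 (1.36, 1.25 to 1.48) and Ctsl at 3.75 and 2.77 (1.35, 1.19 to 1.53). Ctss, the cathepsin that trims the MHC class II invariant chain, lies 17.4 kb from Ctsk on chromosome 3 and was at 43.2 and 34.8 (1.24, 1.20 to 1.29). Ctsc was the lowest at 1.01. The wider set of 34 lysosomal hydrolases and membrane proteins was more mixed, with 22 above 1 and 12 below and a median of 1.06. In it, Gpnmb was the one gene past 1.5, and below that limit lay Cd68 (3.63 and 2.48; 1.46, 1.28 to 1.66) and Lipa, the lysosomal acid lipase (3.25 and 2.34; 1.39, 1.21 to 1.59). Manba, lysosomal beta-mannosidase, was lower at 0.563 (0.334 to 0.896). Of 16 subunits of the V-ATPase, the pump that acidifies lysosomes, 9 were above 1 and the median was 1.04.

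The genes known from osteoclasts and lipid-associated macrophages leaned the same way. Of 21 such genes, 16 were above 1, against 41.0% of all genes, with a median of 1.19, and Gpnmb and Fabp5 passed 1.5. Acp5, the tartrate-resistant acid phosphatase of osteoclasts, was at 1.59 and 1.26 (1.27, 1.04 to 1.53). Lgals3, galectin-3, was at 29.6 and 23.5 (1.26, 1.20 to 1.31), and Cd9, a tetraspanin, at 79.3 and 66.2 (1.20, 1.17 to 1.23). Trem2 and Nfatc1 had ratios of 1.24 (0.904 to 1.68) and 1.19 (0.797 to 1.74), with intervals that include 1. Apoe, which carries lipid out of macrophages, went the other way at 0.351 and 0.633 (0.555, 0.364 to 0.814), although it was detected in 9.0% of both groups. With cells chosen by 1 scoring gene, Apoe was at 0.510 by Ctsk and 0.682 by Wfdc17, but 1.32 (0.973 to 1.76) by Cd63 and 1.04 by Crip1. The list of osteoclast and lipid-associated macrophage genes overlaps the lysosomal and AM identity lists.

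Secreted defence proteins were higher too, with 10 of 11 above 1, against 41.0% of all genes, and a median of 1.17. Slpi, an inhibitor of neutrophil elastase with the same kind of domain as Wfdc17, was at 16.0 and 11.4 (1.40, 1.32 to 1.49). Wfdc21, another gene of this kind that lies 40.7 kb from Wfdc17, was at 14.5 and 10.2 (1.42, 1.33 to 1.51). Both were detected in similar shares of the groups (88.5% and 85.7% for Slpi, 86.5% and 85.4% for Wfdc21), so the difference was in level per cell. The lysozyme gene Lyz2 was at 189 and 162 (1.17, 1.15 to 1.19), and Lyz1 at 1.66 and 1.15 (1.44, 1.19 to 1.73). Lyz1 and Lyz2 share 3.45% of their 98-base runs. On the same stretch of chromosome 11 as Wfdc17 lie several chemokine genes, and these differed in direction. Ccl9, 125 kb away, was at 2.97 and 1.64 (1.81, 1.57 to 2.09), and Ccl6 was at 113 and 93.7 (1.21, 1.18 to 1.23). Ccl3 was at 2.77 and 3.01 (0.920, 0.797 to 1.06), and Ccl4, 39.3 kb away, was at 0.439 and 1.19 (0.368, 0.255 to 0.517). In the 200 cells highest in Wfdc17 alone, the ratios did not differ in this way. They were 1.76 for Ccl9, 1.29 for Ccl6, 1.17 (1.02 to 1.33) for Ccl3 and 1.11 (0.886 to 1.39) for Ccl4.

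Crip1 was set beside other LIM proteins, galectins, S100 proteins and annexins. Of 22, 17 were above 1, against 41.0% of all genes, and the median was 1.13, but only S100a6 passed 1.5. Anxa1, annexin A1, which dampens inflammation, was at 5.02 and 3.57 (1.41, 1.26 to 1.57), and Anxa5 at 10.2 and 8.19 (1.25, 1.16 to 1.35). S100a11 and Anxa2, both abundant, were close to equal at 1.05 and 1.04. Of 40 actin cytoskeleton genes, 23 were above 1, against 41.0% of all genes, with a median of 1.01. Actb was lower at 131 and 147 (0.895, 0.877 to 0.913), and Emp3, a membrane protein, had the highest ratio of the list at 1.47 (1.27 to 1.69).

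All 10 genes of MHC class I presentation were above 1, against 41.0% of all genes, with a median of 1.17. B2m, the shared light chain, led with 41.2 and 30.3 per 10000 UMIs (1.36, 1.31 to 1.41) and per-cell medians of 33.6 and 26.5. H2-K1 (1.18, 1.08 to 1.28) and H2-D1 (1.16, 1.09 to 1.23), the heavy chains, were higher by less. The 6 interferon-induced genes with enough UMIs included Ifitm2 (1.67, 1.27 to 2.17) and Bst2 (1.52, 1.20 to 1.90), which passed 1.5. MHC class II genes had ratios of 0.978 to 1.41, and these changed with the choice of cells. With Cd63 left out of the score the ratio was 5.27 for H2-Ab1, 6.37 for H2-Eb1 and 3.96 for Cd74, and with Wfdc17 left out it was 2.97 for H2-Ab1. In the 205 cells with scores of 0.501 to 0.844, just under the group, H2-Ab1 was at 4.91 per 10000 UMIs, against 2.03 in the 200 cells. When the 200 AMs highest in Cd74, H2-Aa, H2-Ab1 and H2-Eb1 were left out of both groups, the H2-Ab1 ratio went from 1.36 to 0.914, while those of S100a6 (4.20), Gpnmb (2.31) and Fabp5 (1.51) stayed above 1.5. Of those MHC class II-high cells, 29 (14.5%, 9.93 to 20.2) were among the 200 described here.

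In lipid metabolism, sterol synthesis genes were mostly higher. Of 11 sterol synthesis and uptake genes, 10 were above 1, against 41.0% of all genes, and 3 passed 1.5, against 0.884% of all genes. These 3 were Fdps (0.916 and 0.481; 1.90, 1.45 to 2.46), which makes farnesyl pyrophosphate, Msmo1 (1.07 and 0.649; 1.64, 1.29 to 2.08), which demethylates sterols, and Idi1 (0.728 and 0.472; 1.54, 1.14 to 2.05). The 25 fatty acid and lipid droplet genes had a median log2 ratio of -0.05, the same as all genes compared, with 11 above 1. The fatty acid binding proteins split. Fabp5 was higher (1.55) and Fabp4 was at 4.73 and 3.75 (1.26, 1.13 to 1.41), but Fabp1 was lower at 9.67 and 15.5 (0.623, 0.579 to 0.671). The per-cell median of Fabp1 was 6.70 in the 200 cells and 11.2 in the other AMs, while its share of cells was 84.0% and 87.2%. Among cholesterol exporters, Abca1 was at 0.737 (0.556 to 0.961) and Abcg1 at 0.847 (0.786 to 0.911).

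Immediate-early genes, which are induced within minutes by stimulation, were lower in the 200 cells. Of 23, 21 had a ratio below 1, against 59.0% of all genes, and the median was 0.812, with none at 1/1.5 or less. Egr1 was at 1.76 and 2.47 (0.711, 0.594 to 0.846), Nr4a1 at 4.14 and 5.31 (0.779, 0.694 to 0.873) and Fos at 7.06 and 8.46 (0.834, 0.764 to 0.910). The per-cell sum over the list had a median of 62.8 in the 200 cells and 77.4 in the other AMs, and the ranges overlapped almost fully. Klf2 (1.26, 0.877 to 1.77) and Klf4 (1.04, 0.877 to 1.22) were the 2 above 1. Of the 200 AMs lowest in these genes, 31 (15.5%, 10.8 to 21.3) were among the 200 described here, and of the 200 highest, 15 (7.50%, 4.26 to 12.1).

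Of 5 inflammatory genes that the study used to mark a chemokine-producing subset, Cxcl1 was higher in level, as given above. Tnf (0.973, 0.783 to 1.20), Il1a (0.925, 0.674 to 1.25), Cxcl2 (1.01, 0.946 to 1.08) and Cxcl3 (1.05, 0.698 to 1.53) all had intervals that include 1. Il1b, another inflammatory cytokine gene, was at 2.43 and 1.87 (1.30, 1.11 to 1.51). The Il1b ratio was 0.929 with cells chosen without Wfdc17. It was 1.46 without Ctsk, 1.71 without Cd63 and 1.26 without Crip1. Of 10 G2/M phase genes, 9 were below 1, against 59.0% of all genes, with a median log2 ratio of -0.38. Of the 200 AMs highest in 4 cell cycle genes, 20 (10.0%, 6.22 to 15.0) were among the 200 described here, beside 9.73% of all cells. Of the 200 lowest, it was 27 (13.5%, 9.09 to 19.0). Ube2c, a ubiquitin-conjugating enzyme of mitotic exit, was at 0.138 and 0.355 (0.389, 0.191 to 0.709), and 45.5% of its UMIs in the group came from 1 cell. Birc5 (0.780, 0.528 to 1.12) and Stmn1 (0.890, 0.766 to 1.03) had intervals that include 1. With cells chosen by 1 scoring gene, Stmn1 was at 0.397 by Cd63 and 0.779 by Wfdc17, but 1.25 by Ctsk and 1.57 by Crip1. Birc5 had the same directions in these sets. Top2a, at 0.586 (0.357 to 0.912), and Rrm2, at 0.556 (0.313 to 0.922), changed direction under other ways of choosing or thinning the cells.

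**Figure D4:**
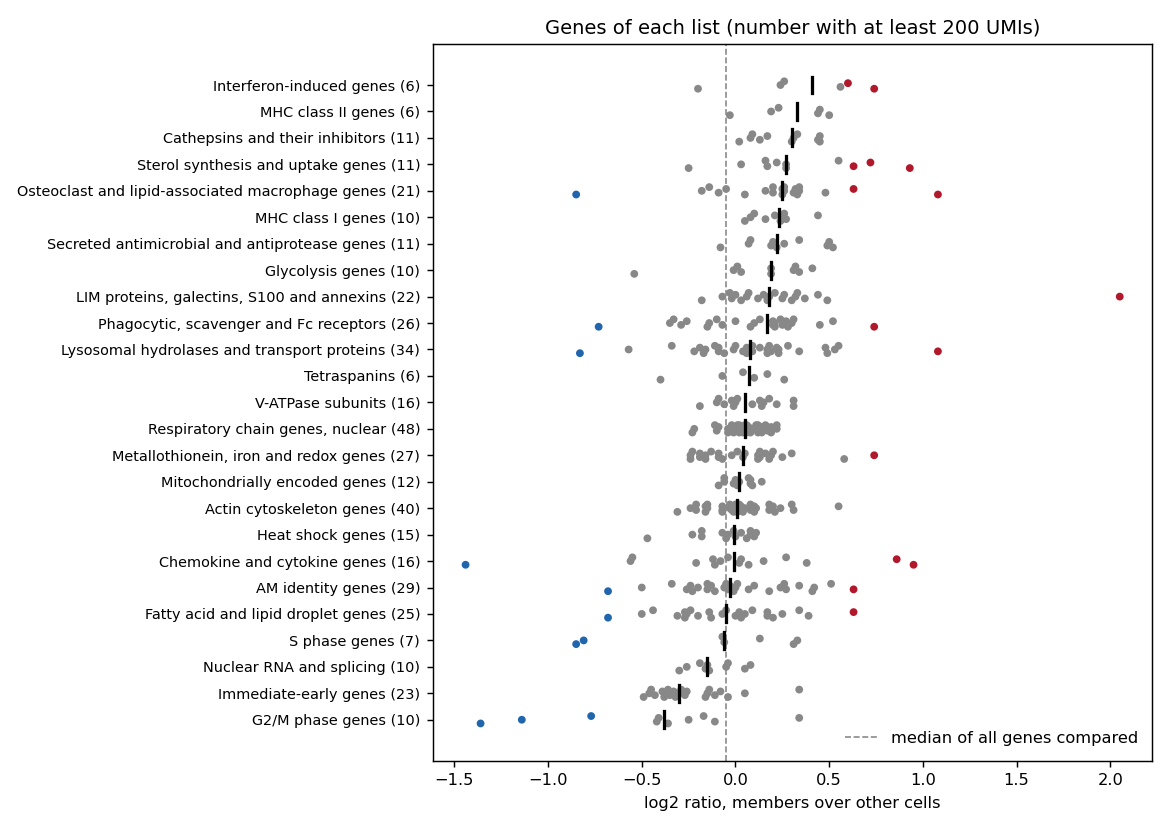
Log2 ratio of each gene between the 200 Ctsk/Cd63/Wfdc17/Crip1-high AMs and the other AMs, by list, for lists with at least 6 genes of at least 200 UMIs (number in brackets). Red and blue dots are at least 1.5-fold higher or lower, black bars are list medians, and the dashed line is the median of all 4297 genes (-0.05). Cathepsins and MHC class I genes lie to the right of 0 without exception, and immediate-early genes lie mostly to the left.

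The lower genes were led by Jchain, Ccl4 and Fabp1. The Jchain ratio of 0.0973 came from 1 other AM with 940 of the 994 Jchain UMIs outside the group, and it was 1.79 without that cell. Ccl4, a chemokine for monocytes and T cells, was detected in 8.00% of the 200 cells (4.64 to 12.7; thinned 4.28%) and 16.2% of the other AMs (14.5 to 17.9; thinned 10.7%). The Ccl4 ratio was 0.814 with cells chosen without Cd63. It was 0.387 without Ctsk, 0.512 without Wfdc17 and 0.437 without Crip1. Siglece, an inhibitory sialic acid receptor, was at 0.251 and 0.554 (0.453, 0.273 to 0.710), and Scarb1, a lipoprotein scavenger receptor, at 0.176 and 0.291 (0.603, 0.324 to 1.04). Zfp36l1, which promotes mRNA decay, was at 0.201 and 0.470 (0.427, 0.241 to 0.705). Trib1, a pseudokinase, was at 1.03 and 1.66 (0.618, 0.488 to 0.774), and Hnrnpa1, a splicing factor, at 0.891 and 1.47 (0.608, 0.470 to 0.774). The other lower genes named by the rule, Evi5, Gpr155, 3830406C13Rik, Emsy, Kdm7a, Aqr and Nip7, had ratios of 0.403 to 0.527 at levels under 0.7 per 10000 UMIs in both groups.

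Receptors for uptake went in both directions. Of 26 phagocytic, scavenger and Fc receptor genes, 16 were above 1, against 41.0% of all genes, and the median was 1.12. Cd93, a receptor tied to the clearance of dying cells, was at 0.477 and 0.286 (1.66, 1.14 to 2.37), whereas Mrc1, the mannose receptor, was at 8.23 and 9.84 (0.836, 0.770 to 0.906) and Sirpa, the receptor for CD47, at 4.24 and 5.31 (0.798, 0.711 to 0.892). Of 48 nuclear genes of the respiratory chain, 36 were above 1, against 41.0% of all genes, but by little. Their median was 1.04 and their range 0.853 to 1.16. Ferritin genes were higher, with Fth1 at 196 and 165 (1.19, 1.17 to 1.21) and Ftl1 at 171 and 152 (1.12, 1.10 to 1.14), while Hmox1, which degrades heme, was at 10.3 and 12.1 (0.851, 0.791 to 0.915).

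The remaining lists lay nearer to 1, and their counts stand beside 41.0% of all genes above 1. Of tetraspanins, with Cd63 left out, 4 of 6 were above 1 with a median of 1.05, and of glycolysis genes 8 of 10 with a median of 1.14. For metallothionein, iron and redox genes it was 15 of 27 (1.03), for mitochondrially encoded genes 7 of 12 (1.01), and for heat shock genes 6 of 15 (0.994). Nuclear RNA and splicing genes were mostly below 1, with 2 of 10 above and a median of 0.904, and of S phase genes 3 of 7 were above 1 (0.961). The lists of lymphocyte, of neutrophil and eosinophil, and of dendritic cell markers had 1 gene each with at least 200 UMIs, and that of endothelial and stromal markers had 0.

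The levels were finally followed over 10 score bins of 205 or 206 cells, the highest of which held all 200 cells. Some genes climbed over most of the range. B2m went from 25.1 per 10000 UMIs in the lowest bin to 35.3 in the ninth and 41.2 in the highest, and Ccl9 from 1.12 to 2.29 and 2.92. Slpi went from 9.55 to 14.8 and 16.0. S100a6 was between 0.181 and 0.410 in the lowest 7 bins, then 0.812, 1.09 and 2.22. Fabp1 showed another shape, with 13.7 to 18.4 in the lowest 9 bins and 9.64 in the highest. Hnrnpa1 was alike, with 1.23 to 1.61 in the lowest 9 bins and 0.871 in the highest. Depth differed along the bins, with median UMIs per cell of 2560.5 in the lowest, 3873 in the ninth and 3684 in the highest. Its part in these levels was not tested beyond the weighting and thinning given above.

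**Figure D5:**
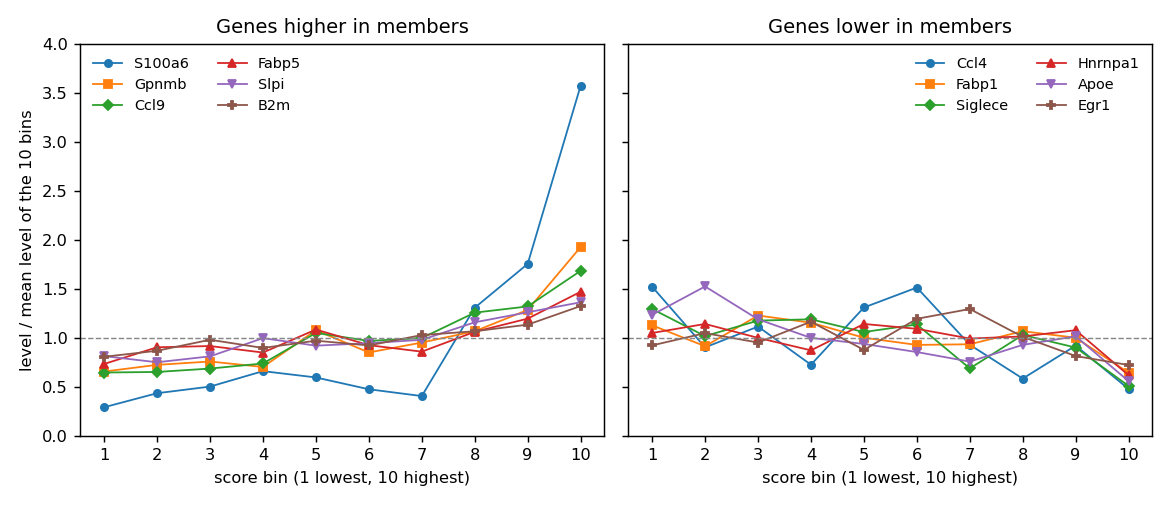
Level of each gene in 10 bins of cells ordered by score, divided by the mean of the gene's 10 bins, for 6 genes higher (left) and 6 lower (right) in the 200 cells, which all lie in bin 10. S100a6 leaves its low level from bin 8 on, B2m and Slpi climb over most of the range, and Fabp1 and Hnrnpa1 lie lower in bin 10 than in any other bin.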

How the data were processed

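The data were 1 library of sorted WT AMs, from 1 adult mouse according to the study's text. The authors aligned reads to mm10 with Cell Ranger 2.1, kept cells with 300 to 2500 genes and at most 5% mitochondrial reads, removed genes in fewer than 3 cells, ribosomal protein genes and some others, and scaled with Seurat in R 3.3.2. The deposited table gives natural log values of 1 plus UMIs per 10000, and a second deposited table gives a scaled score per gene and cell, regressed by the authors on UMI number and mitochondrial share and used here only for another choice of cells. In the first of these, 384 of 2055 cells exceeded 5% mitochondrial UMIs over 13 listed genes, 108 genes had Rpl or Rps names and 279 genes had UMIs in fewer than 3 cells, so these filters are not visible there. Whole UMIs were recovered from the steps between the natural log values of each cell: 100% of values were within 0.01 of a whole number of steps, and the depth was 7222978 UMIs over 11918 genes and 2055 cells.

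The members and gene lists were chosen with earlier results of these data known. UMIs were summed over the 200 cells and over the other AMs, divided by the groups' totals and compared as a ratio, with an exact (Clopper-Pearson) 95% interval from the split of a gene's UMIs between the groups. PCR and cell-to-cell spread are not in these intervals. Genes with at least 200 UMIs were compared, and 1.5-fold is a descriptive limit, not a test. Named are the 20 genes with the highest lower bound and the 15 with the lowest upper bound, members of 31 lists with a ratio past 1.5-fold (otherwise the 2 highest and 2 lowest), the most abundant markers of other cell types, and the study's marker genes, Hdac3 and Pparg. Further members of the lists, and Wfdc17's neighbouring chemokine genes, were named after their values were seen. Alternatives were other UMI minimums, other numbers or choices of cells, thinning, weighting by UMIs, a mean over cells, and a limit of 5% mitochondrial UMIs. The scripts were tested on simulated UMIs. Python 3.11.15, numpy 2.4.6, scipy 1.17.1 and pandas 2.3.3 were used, with GENCODE M21 for positions. Protein sequences were not used here. Some list members are not reported here.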

Additional observations from a re-analysis of the deposited data

How the results depend on the processing

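No paired analysis was possible because there was 1 library. The counts of genes at least 1.5-fold higher and lower, 38 and 171, moved with the settings, while the direction of those genes mostly did not. They were 293 and 776 with at least 50 UMIs per gene, 10 and 18 with at least 500, and 1401 and 2557 with no minimum. They were 99 and 355 for the 100 highest cells, 98 and 319 when cells were chosen on a random part of the UMIs and genes read on the rest, and 139 and 384 after thinning. For the 300 highest cells 90 genes were lower, and with a mean over cells 60 were higher. An alternative added after seeing the data, leaving out the 200 AMs highest in MHC class II genes, gave 59 higher. Fewer UMIs per gene or fewer cells widen the scatter of ratios by construction, and for the rest the cause was not tested. Of the 38 higher genes, 35 to 38 stayed above 1 across the settings, and of the 171 lower genes 162 to 171 stayed below 1. A UMI minimum leaves each ratio as it was, so those settings could not change a direction. The other settings reuse many of the same cells and UMIs. Fewer genes stayed past 1.5-fold. With cells chosen on a random part of the UMIs, 19 of the 38 and 89 of the 171 did. With cells chosen without Cd63, 17 and 73 did. Of 930 values of 62 named genes, 787 moved by less than their interval, 135 moved further and 8 changed direction. In log2 ratio, Cxcl1 became -0.04 with cells chosen without Wfdc17. Jchain became 0.84 when each gene's top cell was left out, also chosen after seeing the data, and 0.67 without the MHC class II-high cells. Rrm2 became 0.04 for the 300 highest cells, 0.07 without Ctsk in the score and 0.14 without Cd63. Top2a became 0.05 after thinning and 0.16 without Cd63.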
